A study of Mus musculus with 9 samples.

Results

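The genes of the cytosolic ribosomal proteins were followed through pull-downs of HuR from mouse liver. Members were taken by name from the deposited table. They were the names that begin with Rpl or Rps and a digit, and Rplp0, Rplp1, Rplp2 and Rpsa, with Rps6k kinases and names containing -ps left out. This gave 92 of 33732 gene names. By name and annotated class, 50 encode proteins of the large subunit and 33 proteins of the small subunit. Another 7 are annotated as pseudogenes (Rpl32l, Rpl37rt, Rpl6l, Rps12l1, Rps3a2, Rps3a3 and Rps4l). The other 2, Rpl7l1 and Rps19bp1, carry the name without being counted here as subunits.

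All libraries came from whole healthy liver of wild-type C57BL/6 mice at 8 weeks of age. RNA immunoprecipitation with sequencing (RIP-seq) compared 3 HuR libraries (antibody against HuR), 3 IgG libraries (control antibody) and 3 Input libraries, and the series asks which RNAs HuR targets in this organ. The pull-downs were native, that is without crosslinking, and each used 1 liver; whether an HuR and an IgG pull-down shared a liver is not given, and p-values measure the spread between these libraries. Input has a single column, read here from its header and the fold columns as the mean of the Input libraries, which no label states, and it has no spread and no test. Values with HuR and with IgG are given in the order of library 1, 2 and 3.

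Ribosomal proteins bind the ribosomal RNAs and form, with them, the small subunit, which reads the mRNA, and the large subunit, which joins amino acids. Their mRNAs are among the most abundant of a liver cell and start with a tract of pyrimidines (the TOP motif) through which growth signals set their translation. Many of these genes also carry small nucleolar RNAs (snoRNAs) inside introns. Box C/D snoRNAs guide ribose methylation of ribosomal RNA, and H/ACA snoRNAs guide its pseudouridylation. HuR, encoded by Elavl1, is an RNA-binding protein that prefers U-rich and AU-rich stretches, often in 3′ UTRs.

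The library sizes behind the values were 26.6, 26.3 and 26.9 M reads with HuR and 15.9, 26.7 and 28.8 M reads with IgG. Members took 0.203% to 1.29% of the reads in listed exons of the HuR libraries, 0.434% to 2.74% of those of the IgG libraries and 0.0416% of the Input mean. IgG 1 was the highest, and it alone held 41.7% of all member reads in the pull-downs. In the Input mean, members took 0.29% of the reads of protein-coding genes, and the median member was at 0.344 RPKM. These levels are low for mRNAs described above as abundant, and the cause was not tested. The 6 hepatocyte markers summed to 766 to 855 RPKM (reads per kilobase of exon, scaled to library size) in the HuR libraries and 283 to 741 RPKM in the IgG libraries, against 766 RPKM in the Input mean. The 5 cholangiocyte markers, of which 2 passed the filter, summed to 3.78 to 13.1 RPKM in the HuR libraries and to at most 0.662 RPKM in the IgG libraries. For Kupffer, endothelial, stellate, lymphoid and erythroid markers the sums overlapped between the groups. Those of erythroid cells and blood were at 64.5 to 172 RPKM with HuR and at 98.7 to 234 RPKM with IgG. The part of any of these cells in a member's value was not tested. In lysates of whole liver, fewer cells of a type and less RNA per cell cannot be told apart.

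Of the 92 members, 25 have a listed exon that overlaps a small structural RNA gene on the same build (GRCm38, also called mm10), 17 of the large and 8 of the small subunit. For 24 of them this is a snoRNA gene, and for Rpl19, a large subunit protein, it is the microRNA gene Gm27597. A further 6 (Rpl17, Rpl23, Rpl37, Rpl39, Rps16 and Rps3a1) have snoRNA genes only in introns under no listed exon. The 5 members with most reads held 83.0% of all member reads. Of these, Rpl6, Rpl12, Rps2 and Rpl27a have a snoRNA gene under an exon that is of the H/ACA kind by its name or, for Gm26205, by an ACA near its 3′ end. Those 4 snoRNAs and the box C/D snoRNA in Rps3 are printed because their hosts are among the members with most reads over a small RNA gene. Most of the reads assigned to these hosts lie over them. The sequences are GENCODE M21 transcripts of GRCm38, 5′ to 3′, in DNA letters. Capitals mark the ACA that ends 3 bases before the 3′ end of the H/ACA snoRNAs, and the TGATGA and CTGA of the box C/D snoRNA.
Gm26205: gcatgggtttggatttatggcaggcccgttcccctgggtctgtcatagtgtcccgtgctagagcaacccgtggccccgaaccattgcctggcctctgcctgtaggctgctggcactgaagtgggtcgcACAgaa
Snora65: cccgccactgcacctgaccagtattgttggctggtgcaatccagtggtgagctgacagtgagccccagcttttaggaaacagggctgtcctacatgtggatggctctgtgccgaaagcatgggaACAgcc
Snora64: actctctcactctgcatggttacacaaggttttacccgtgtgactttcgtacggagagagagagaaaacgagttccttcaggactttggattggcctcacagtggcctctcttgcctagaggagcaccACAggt
Snora3: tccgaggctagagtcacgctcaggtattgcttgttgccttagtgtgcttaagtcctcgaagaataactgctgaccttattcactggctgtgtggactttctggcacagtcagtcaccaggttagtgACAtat
Snord15b: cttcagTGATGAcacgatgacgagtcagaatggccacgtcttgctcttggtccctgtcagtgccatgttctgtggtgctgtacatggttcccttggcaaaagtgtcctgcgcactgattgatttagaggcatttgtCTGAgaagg
Gm26205 lies within Rpl6 at chr5:121205010-121205143 on the plus strand, and Snora65 within Rpl12 at chr2:32963291-32963420 (plus). Snora64 lies within Rps2 at chr17:24720772-24720905 (plus), and Snora3 within Rpl27a at chr7:109520120-109520251 (plus). Snord15b lies within Rps3 at chr7:99479563-99479707 (minus).

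Over the 6 pull-down libraries 562714 reads were assigned to members, and 95.8% of them lay in exons over a small RNA gene. The values show that a read lying over more than 1 listed exon counted as a fraction for each. In 36 of 45 pairs of a member exon and a snoRNA gene with reads, exon and snoRNA had the same number of reads within 10%. The exon of Rpl6, a large subunit protein, over Gm26205 spans 714 bases. In IgG 1 it held 91194 reads and Gm26205 held 91193. The matched pairs involve 22 members, and the pairs that did not match had mostly more reads in the exon than in that snoRNA, as where an exon of Rps12 spans 3 snoRNA genes.

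**Figure D1:**
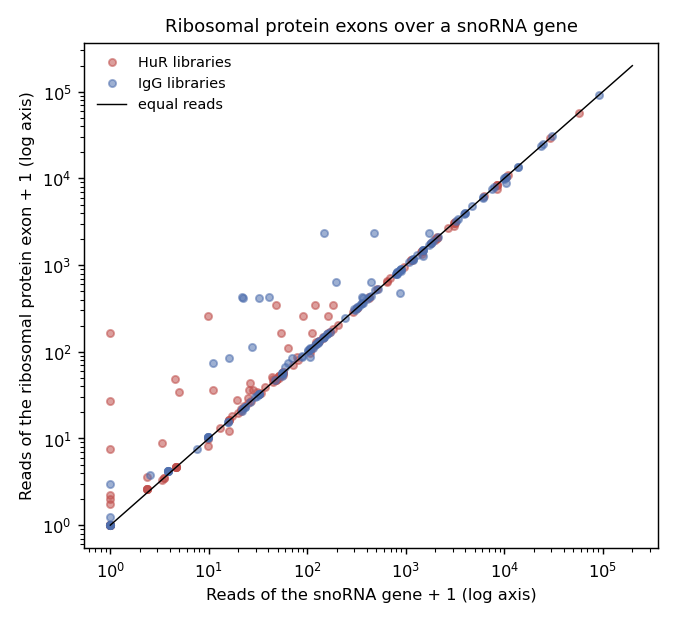
Reads of each member exon that lies over a snoRNA gene (y axis, log scale, reads + 1) against the reads of that snoRNA gene (x axis, log scale, reads + 1), with a point for each of 45 pairs in each of 6 libraries and a line at equal reads. Most points lie on the line, in HuR and IgG libraries alike, and exons that span several snoRNA genes lie above it.

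The median level of the 25 hosts was above that of the other members in every library, while levels of single genes overlapped. The median host was at 5.39, 2.80 and 4.27 RPKM with HuR, at 76.8, 5.68 and 5.39 RPKM with IgG, and at 1.30 RPKM in the Input mean. The median of the 67 other members was at 0.591, 0.438 and 0.555 RPKM with HuR, at 0.637, 0.148 and 0.0364 RPKM with IgG, and at 0.253 RPKM in the Input mean. IgG 1 was the highest of the 6 pull-down libraries for 24 of the 25 hosts and for 18 of the 67 others. When only exons outside small RNA genes were used, the median host was at 0.290, 0.518 and 0.618 RPKM in the HuR libraries and at 0.628, 0.209 and 0.0608 RPKM in the IgG libraries. IgG 1 was then the highest for 5 of the 25 hosts, and HuR 3 for 10.

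**Figure D2:**
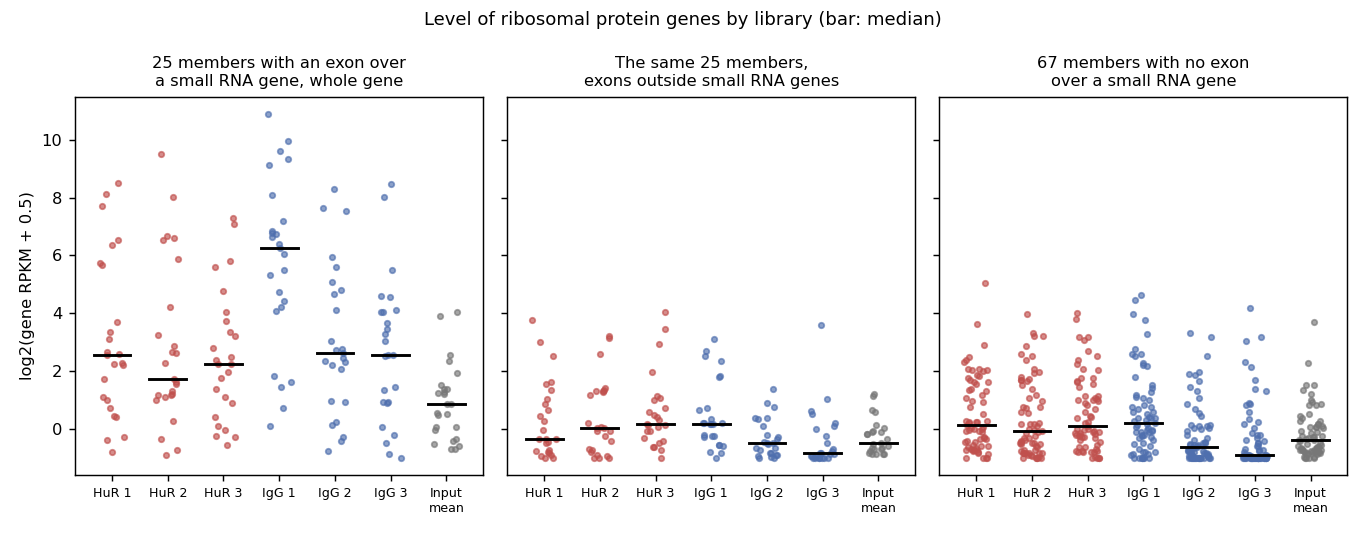
Level of each member, as log2(gene RPKM + 0.5), in the 6 pull-down libraries and the Input mean, for the 25 members with an exon over a small RNA gene (left), the same members without those exons (middle) and the 67 others (right); bars are medians. On the left IgG 1 stands above the other libraries, with a median of 76.8 RPKM, and in the middle panel its median of 0.628 RPKM is close to that of HuR 3, 0.618 RPKM.

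HuR RIP against IgG RIP asks which of these RNAs the HuR antibody held beyond the control antibody. No member passed the test in either direction. Of the 57 members with an RPKM of at least 0.5 in 3 or more of the 6 libraries, limma on log2(RPKM + 0.5) called 0 higher and 0 lower at a Benjamini-Hochberg adjusted p under 0.05. Of all 5510 tested genes it called 0.672% higher and 0.127% lower. Before adjustment, 4 members were higher at a p under 0.05, against 27.9% of all tested genes, and 5 were lower, against 3.19%. The median log2 fold change of the tested members was -0.003, and that of all tested genes was 0.92, to which each value below should be held. Under TMM-like scaling, which put the median of all genes at 0.09, that of the members was -1.04, and 12 of 57 members were called lower, against 6.21% of all 5510 tested genes, 11 of them snoRNA hosts and the other the pseudogene Rps3a3. In a fit of 3943 protein-coding genes alone, 4 of 51 members were called lower, the hosts Rpl13, Rpl13a, Rps2 and Rps3, against 0.203% of those genes. In that fit 1 member, Rps21, was called higher, against 18.5% of those genes. Without IgG 1 the median of the tested members was 0.75, beside 1.24 for all tested genes. The column headers of IgG 2 and IgG 3 carry an r after the DKR number, which IgG 1 and the HuR libraries lack. They also mark library 3 of both groups with another letter than libraries 1 and 2. Without library 3 of both groups the median was -0.45, beside 0.85 for all tested genes. In that fit 0 members were called higher and 0 lower, against 0.0907% and 0.2% of all tested genes. With the values as reported, 15 of the 57 lay above the median of all genes. For 35 tested members that have no exon over a small RNA gene the median was 0.82, and for the 22 hosts it was -1.25, with 18 below 0 and 0 above the median of all genes.

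Groups that did not overlap were counted as well. In 5 tested members all HuR libraries lay above all IgG libraries, against 31.3% of all tested genes, and in 6 members all IgG libraries lay above all HuR libraries, against 3.48% of all tested genes. The first 5 are Rps21, Rpl36al, Rpl26, Rpl38 and Rpl35a, none of which has an exon over a small RNA gene. The other 6 are Rps2, Rpl13, Rps3, Rps12 and Rpl23a, all hosts of snoRNA genes, and the pseudogene Rps3a3. Over all 92 members, tested or not, the counts were 12, against 13.3% of all genes with a read, and 8, against 1.26%. In the authors' deposited table, none (0) of 847 member exons, and 0% of all 136082 exons with a q-value, had a q under 0.05.

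Among small subunit genes, Rps21 had the highest value of all tested members (chr2:180257377-180258445). It encodes a small protein of the small subunit and was at 3.0, 2.11 and 4.27 RPKM with HuR. With IgG it was at 0.426, 0.0508 and 0 RPKM, and in IgG 3, at 0, 3 reads would give 0.141 RPKM. The Input mean was 0.304 RPKM. All HuR libraries were therefore above all IgG libraries and above Input, for a log2 fold change of 2.47 (SE 0.68, limma adjusted p = 0.0574). With every IgG library under 0.5 RPKM, Rps21 passed the filter only through its HuR libraries, as Rpl35a did, so that a gene let in this way had to differ. Over 19 settings of the whole-gene fit its log2 fold change ranged from 1.37 to 3.96 and its adjusted p from 0.0109 to 0.540. The adjusted p was under 0.05 in 3 of them: 0.0362 with a filter at 1 RPKM, 0.0109 among protein-coding genes alone and 0.0427 without IgG 1. Only 191 reads in the 6 libraries lie behind it.

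Other small subunit genes were less even between libraries. Rps18 was at 1.57, 3.36 and 0.409 RPKM in the HuR libraries and at 0.637, 0.0649 and 0.214 RPKM in the IgG libraries, so the groups overlapped (log2 fold change 1.33, SE 0.66). Rps6, the substrate of S6 kinases, was at 2.40, 1.20 and 0.367 RPKM with HuR and at 0.540, 0.296 and 0.0228 RPKM with IgG, with 0.528 RPKM in Input. Its log2 fold change was 1.1 (SE 0.61, limma adjusted p = 0.209), and HuR 3 lay below IgG 1. Rps27l, a paralog of Rps27, was at 7.0, 0.0969 and 15.7 RPKM with HuR and at 0.803, 0 and 4.43 RPKM with IgG. HuR 2 thus lay far below the other HuR libraries, in this gene and in Rps27rt, which was at 3.72, 0.203 and 13.3 RPKM with HuR and at 2.36, 0.602 and 0 RPKM with IgG. Rps27rt shares 91.9% of its 30-base words with Rps27, so the reads of these 2 genes could be mixed. Rps27a, which encodes a fusion of ubiquitin with a small subunit protein, was below the filter, at 2.68, 0.970 and 0.302 RPKM with HuR and at 0.476, 0.218 and 0.101 RPKM with IgG.

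Of the tested large subunit genes, the reverse order held in 2, the hosts Rpl13 and Rpl23a, and all HuR libraries lay above all IgG libraries in 4. Rpl36al, a paralog of Rpl36a, was at 1.97, 1.6 and 4.75 RPKM with HuR, at 0.746, 0.520 and 0.308 RPKM with IgG, and at 0.253 RPKM in Input, a log2 fold change of 1.58 (SE 0.71, limma adjusted p = 0.140). It shares 0% of its 30-base words with Rpl36a. Rpl26, whose protein lies near the exit of the peptide tunnel, was at 0.705, 5.21 and 2.57 RPKM with HuR and at 0.624, 0.444 and 0.411 RPKM with IgG. HuR 1 was only just above IgG 1 there, and the log2 fold change was 1.48 (SE 0.73). Rpl38, known for its part in the translation of Hox mRNAs, was at 2.11, 0.632 and 1.47 RPKM with HuR and at 0.524, 0 and 0.216 RPKM with IgG, with 0 in Input and 61 reads in all. Rpl35a, a gene mutated in some cases of Diamond-Blackfan anaemia, was at 0.663, 1.12 and 0.646 RPKM with HuR and at 0.269, 0.0105 and 0 RPKM with IgG (log2 fold change 1.15, SE 0.49, limma adjusted p = 0.120). Its HuR libraries were the closest to each other of these 4 genes. Rpl22 was at 3.70, 0.249 and 5.92 RPKM with HuR and at 1.91, 0.201 and 0 RPKM with IgG, so that HuR 2 again lay low and the groups overlapped.

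**Figure D3:**
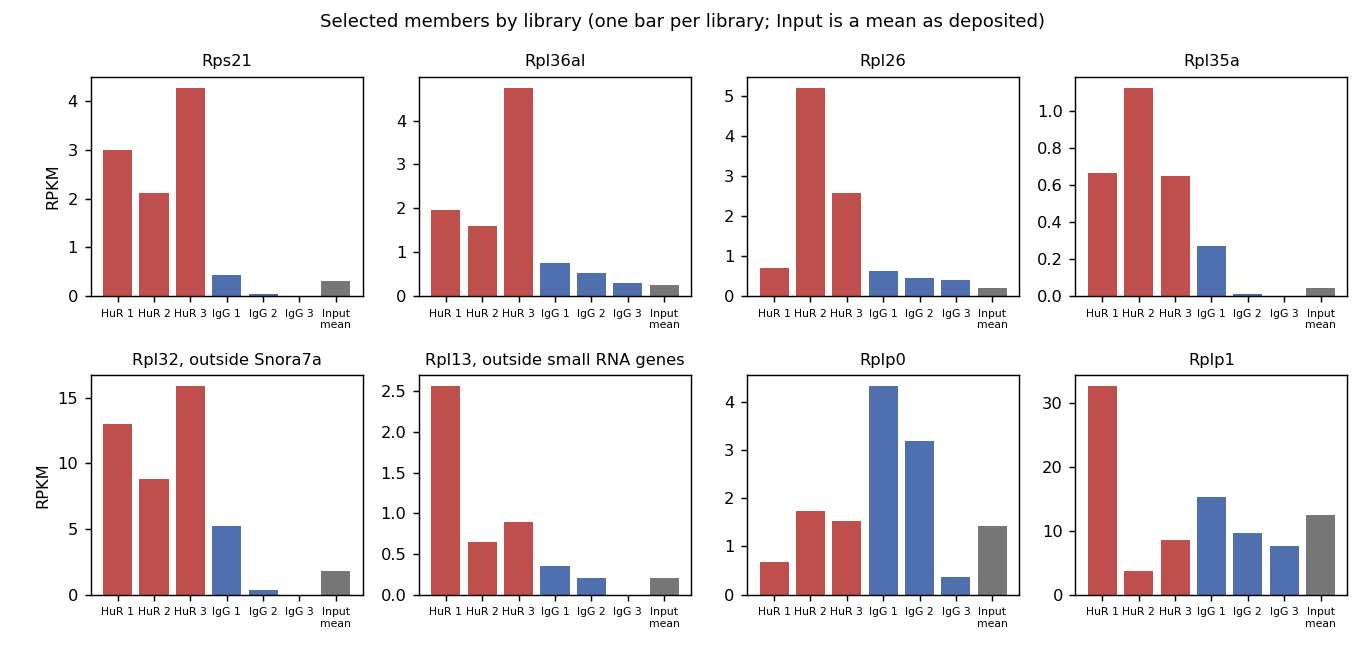
RPKM of 8 members in each pull-down library and in the Input mean (bars from 0, a bar for each library, y axis in RPKM with its own range in each panel), with Rpl32 and Rpl13 from exons outside small RNA genes. In Rps21, Rpl36al, Rpl26, Rpl35a, Rpl32 and Rpl13 the 3 HuR bars exceed the 3 IgG bars; in Rplp0 and Rplp1 they do not.

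The stalk of the large subunit, built by Rplp0, Rplp1 and Rplp2, binds the translation factors. Rplp0, long used as a reference gene, was at 0.679, 1.74 and 1.52 RPKM with HuR and at 4.33, 3.19 and 0.355 RPKM with IgG, with 1.42 RPKM in Input. Rplp1 was at 32.6, 3.65 and 8.56 RPKM with HuR, at 15.3, 9.55 and 7.65 RPKM with IgG and at 12.4 RPKM in Input, the highest Input mean of the members that have no exon over a small RNA gene. The groups overlapped in both genes, with log2 fold changes of -0.50 (SE 0.79) and -0.02 (SE 0.93). Rplp2, which has an exon over Snora52, was at 1.49, 5.76 and 1.36 RPKM with HuR and at 16.4, 6.15 and 2.2 RPKM with IgG. Outside that exon it was at 0.231, 0.446 and 0.602 RPKM with HuR and at 0.176, 0.215 and 0.0194 RPKM with IgG, below the filter. Rpl8, of the peptidyl transferase region, overlapped as well, at 3.46, 2.79 and 7.91 RPKM with HuR, 9.12, 5.2 and 1.27 RPKM with IgG and 4.29 RPKM in Input.

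Of the 8 lowest log2 fold changes, 7 belonged to hosts of snoRNA genes. Rps2, a small subunit protein at the mRNA entry, was at 52.8, 96.2 and 16.0 RPKM with HuR and at 776, 185 and 256 RPKM with IgG, with 14.5 RPKM in Input. Every IgG library was above every HuR library (log2 fold change -2.92, SE 1.11, limma adjusted p = 0.0993), and 99.6% of its reads lay over Snora64. Outside that exon Rps2 was at 0.202, 0.518 and 1.51 RPKM with HuR and at 2.93, 1.36 and 0.0249 RPKM with IgG, and the groups overlapped (-0.41, SE 0.72). Rpl13 was at 5.54, 2.80 and 3.39 RPKM with HuR and at 116, 6.35 and 12 RPKM with IgG, a log2 fold change of -2.34 (SE 0.99, limma adjusted p = 0.123). Outside Snord68 and Mir7079 the order was the opposite: 2.57, 0.647 and 0.898 RPKM with HuR against 0.347, 0.209 and 0 RPKM with IgG, a log2 fold change of 1.34 (SE 0.59, limma adjusted p = 0.125). Counted this way Rpl13 passed the filter only through its HuR libraries.

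Rps3, which also acts in DNA repair, was at 5.86, 8.86 and 5.14 RPKM with HuR and at 109, 27.7 and 9.18 RPKM with IgG, with 94.4% of its reads over Snord15b. Its log2 fold change was -2.16 with the whole gene and -0.01 outside that exon. Rpl13a, known as part of a complex that silences inflammatory mRNAs, was at -2.13 with the whole gene and at -0.29 outside, and Rpl7a at -1.58 and 0.64. Rps12 had 99.96% of its reads over snoRNA genes and did not pass the filter outside them. The pseudogene Rps3a3 was the exception among the 8, with no small RNA gene over its exon, at 0.0473, 1.43 and 2.85 RPKM with HuR and at 5.55, 3.11 and 8.55 RPKM with IgG. Its log2 fold change was -1.93 (SE 0.82, limma adjusted p = 0.123), and it shares 68.1% of its 30-base words with Rps3a1, a small subunit gene.

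Rpl6 and Rpl12, hosts among the 8 highest Input means, had nearly all of their reads over snoRNA genes too. Rpl6 was at 364, 727 and 135 RPKM with HuR, at 1914, 313 and 355 RPKM with IgG and at 16.1 RPKM in Input. Outside Gm26205 it was at no more than 0.746 RPKM in any of the 6 libraries. Rpl12 was at 277, 102 and 47.7 RPKM with HuR and at 560, 47.7 and 23.3 RPKM with IgG, and at no more than 0.238 RPKM outside Snora65. Rpl27a was at 91.5, 58.0 and 12.8 RPKM with HuR and at 647, 33.1 and 23.6 RPKM with IgG, and outside Snora3 at 5.19, 1.95 and 1.67 RPKM with HuR and at 1.06, 0.0169 and 0.937 RPKM with IgG. With the whole gene the groups of these 3 genes overlapped, and outside Snora3 those of Rpl27a did not. Rpsa, which encodes a small subunit protein also known as a laminin receptor, was at 4.36, 4.30 and 6.48 RPKM with HuR and at 39.4, 5.68 and 2.04 RPKM with IgG, with 68.5% of its reads over a snoRNA gene. Its groups overlapped with the whole gene (-0.65, SE 0.94) and outside that exon (0.59, SE 0.91).

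Among the hosts, Rpl32 had the highest value outside small RNA genes. With the whole gene it was at 81.3, 91.4 and 54.8 RPKM with HuR and at 269, 61.6 and 16.7 RPKM with IgG, a log2 fold change of 0.18 (SE 1.13). Outside the exon over Snora7a it was at 13.0, 8.81 and 15.9 RPKM with HuR, and at 5.22, 0.321 and 0 RPKM with IgG, where 3 reads in IgG 3 would give 0.223 RPKM. Input was at 1.80 RPKM. The groups no longer overlapped, and the log2 fold change was 3.26 (SE 0.88, limma adjusted p = 0.0523), the highest among members counted this way. Over 12 settings of the fit outside small RNA genes the adjusted p ranged from 0.0361 to 0.334, and it was under 0.05 in 2 of them, at 0.0361 when HuR 2 was left out and at 0.0432 when IgG 1 was.

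Across all members the exons outside small RNA genes held 23769 reads in the 6 libraries. Of 50 members that passed the filter on these exons, limma called 0 higher and 0 lower, against 0.811% and 0.129% of 5425 tested genes. Before adjustment, 8 members were higher at a p under 0.05, against 28.2% of all tested genes, and 1 was lower, against 3.06%. The median of the 50 was 0.73, beside 0.93 for all tested genes, and 20 of the 50 lay above the latter. All HuR libraries lay above all IgG libraries in 9 members, against 31.7% of all tested genes, and the reverse held in 1 member, Rps3a3, against 3.17%. Over all 92 the counts were 17, against 13.3% of all genes with a read, and 2, against 1.18%. Of 14 hosts tested both ways, 13 had a higher value outside the small RNA genes, by a median of 2.18 on the log2 scale, and 8 went from below 0 to above 0. Rpl19 was the exception. Another 8 hosts, Rpl6, Rpl12 and Rps12 among them, no longer passed the filter, and Rpl21 passed only this way.

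**Figure D4:**
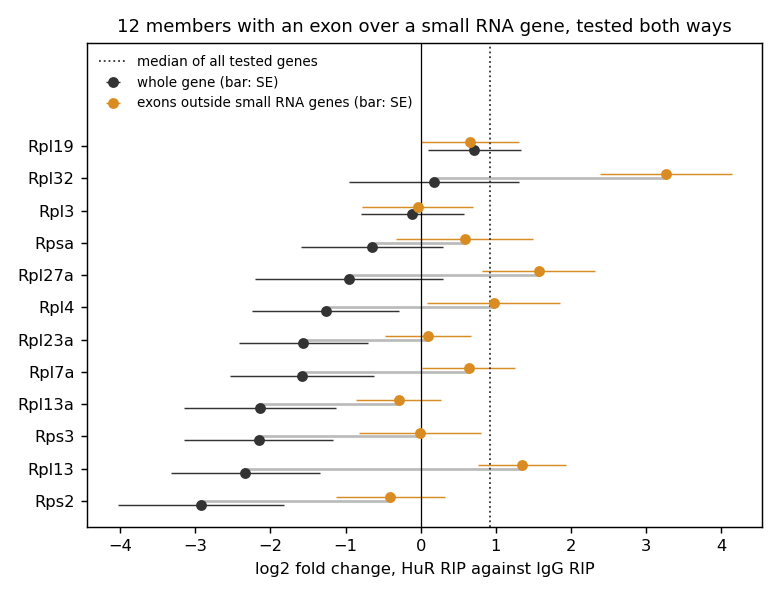
log2 fold change of HuR RIP against IgG RIP (x axis, log2 of RPKM + 0.5) with its SE for 12 of the hosts tested both ways (y axis), from the whole gene (dark) and from exons outside small RNA genes (orange), with a dotted line at the median of all tested genes, 0.92. In 11 of these 12 the orange point lies to the right, furthest for Rpl13 and Rpl32.

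The snoRNA genes under member exons were tested in the same fit as genes of their own. Of 28 tested, 25 had a log2 fold change below 0, with a median of -2.2, and 0 passed the threshold. Of 270 other snoRNA genes tested, 242 lay below 0, with a median of -1.6, and 6 passed. Among protein-coding genes that are not members, the median was 0.80 for 147 tested genes that have an exon over a small RNA gene and 1.1 for 3745 that have none. Whether these medians differ from those of the members was not tested.

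Many members lay above the Input mean in the pull-downs of either antibody. All 3 HuR libraries lay above the Input mean in 46 of 92 members, against 23.7% of all genes with a read, and all 3 IgG libraries did so in 33 of 92, against 5.72%. Among the 25 hosts these counts were 20 for HuR and 21 for IgG. Outside small RNA genes the counts were 37 of 92 for HuR, against 23.5% of all genes, and 15 of 92 for IgG, against 5.41%. Of the 85 protein-coding members, 46 (HuR) and 31 (IgG) lay above Input with the whole gene, against 32.5% and 5.37% of protein-coding genes, and 37 and 13 did so outside small RNA genes, against 32.2% and 5.08%. The median difference from the Input mean over all members was 0.68 on the log2 scale for HuR and 0.33 for IgG, and outside small RNA genes it was 0.53 and 0.11. For the hosts with their whole genes it was 1.55 and 3.13. Both sets of differences share the Input mean, and neither has a test. The HuR value turned to -0.68 with libraries and Input centred at their medians and to -0.037 under TMM-like scaling.

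Summed over the members, the last exons held a larger share of the reads in HuR libraries. Terminal exons, the last exons of protein-coding transcripts, were compared with the other exons outside small RNA genes in 83 members. They held 53.3%, 33.7% and 57.8% of these reads with HuR, 28.2%, 21.9% and 20.1% with IgG, and 27.6% in the Input mean. Every HuR library was above every IgG library and above Input. In 3817 other tested protein-coding genes the shares were 65%, 53.9% and 74.5% with HuR, 43.1%, 45.1% and 43.2% with IgG, and 44.0% in Input, so the same order held there. Whether the gap differs between members and other genes was not tested. These shares pool the reads of all genes, so genes with many reads weigh most. Over members with more than 5 reads in a library, the median share per gene was 45.2%, 21.3% and 46.7% with HuR. With IgG it was 20.3%, 10.7% and 0%, so by this measure HuR 2 lay close to IgG 1. By level, terminal exons had all HuR libraries above all IgG libraries in 23 of the 83 members, against 20.5% of 13730 protein-coding genes, and the reverse in 0, against 0.255%. For the other exons of the same members the counts were 9, against 7.77%, and 3, against 1.46%. Of the 23 members, 8 had all 3 IgG libraries at 0 in the terminal exons, so their order could rest on few reads. In Rpl11, HuR 2 was at 0.0478 RPKM there, and 3 reads would give 0.262 to 0.477 RPKM in the IgG libraries.

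**Figure D5:**
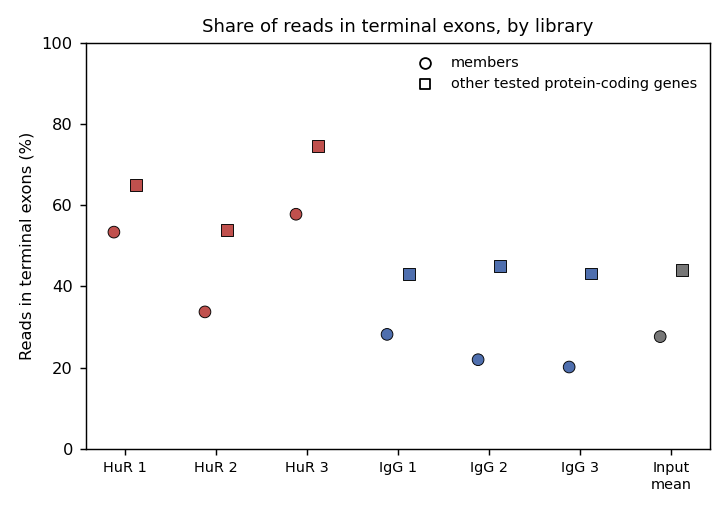
Percentage of reads outside small RNA genes that lie in terminal exons (y axis) in each pull-down library and the Input mean, for 83 members (circles) and 3817 other tested protein-coding genes (squares). In both sets the 3 HuR libraries lie above the 3 IgG libraries, and the members lie below the other genes in each library.

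Rpl4, a large subunit protein that lines the peptide tunnel, had the most reads among these terminal exons. Its terminal exons were at 23.8, 19.7 and 26.5 RPKM with HuR and at 7.03, 1.06 and 15.4 RPKM with IgG, with 2.44 RPKM in Input. The whole gene outside small RNA genes overlapped between groups, at 7.43, 8.21 and 10.6 RPKM with HuR and at 5.95, 0.805 and 11.5 RPKM with IgG. In Rps21 the terminal exon was at 12.7, 1.12 and 23.2 RPKM with HuR and at 0 in all 3 IgG libraries, where 3 reads would give 1.53 to 2.78 RPKM. Rps27l, which overlapped as a gene, had 7.92, 0.102 and 21.6 RPKM in its terminal exons with HuR and 0 in all 3 IgG libraries, where 3 reads would give 0.559 to 1.02 RPKM. The HuR 2 values of both genes lie below these floors, at 2 reads and 0.5 of a read, so that HuR 2 and IgG could not be told apart at this depth. In Rpl24, which encodes a large subunit protein and lay below the filter as a gene, the terminal exons were at 18.6, 3.35 and 17.8 RPKM with HuR and at 3.03, 0.297 and 0.558 RPKM with IgG.

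The annotated 3′ UTRs of members were short. Over 85 protein-coding members the median length of the longest 3′ UTR was 173 bases, and over the 51 tested ones 89 bases, beside 1258 bases in 3874 other tested protein-coding genes. Several U-rich and AU-rich letter strings were counted on the sense strand, and strings may overlap. UUUUUUU was present in 12.9% of members and 47.6% of the other genes, AUUUA in 21.2% and 69.7%, UUUAUUU in 10.6% and 41.9%, and UAUUUAU in 2.35% and 27.9%. The shares were not adjusted for length. A match is a description of the letters and not a binding site.

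Genes near the members in function were listed for comparison, with members and lists chosen when earlier results of these data were known. Of the translation factors and other TOP mRNAs, 17 of 28 in the table were tested, 0 passed in either direction, and the median was 0.77. The highest were Cox7c, a subunit of cytochrome oxidase, at 2.46 (limma adjusted p = 0.0623), and Pabpc1, the poly(A)-binding protein, at 2.0. The lowest were Rack1 at -1.67 and the helicase gene Eif4a2 at -1.16, both with exons over snoRNA genes, and outside those they were at -0.94 and 0.33. Rack1, a small subunit protein that the naming rule misses, was at 2.16, 2.86 and 2.79 RPKM with HuR and at 21.6, 4.69 and 7.69 RPKM with IgG. Fau, which encodes a small subunit protein fused to a ubiquitin-like one, was at 5.58, 0.653 and 1.64 RPKM with HuR and at 1.24, 0.782 and 0.852 RPKM with IgG.

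Of the ribosome assembly factors, 10 of 47 in the table were tested, 0 passed, and the median was 0.73. Sbds, which helps to release Eif6 from the large subunit, was highest at 2.06, followed by Gnl3l at 1.98. Nop56, a core protein of box C/D particles, was lowest at -1.07, and Gnl3 was at -0.92. Both have exons over snoRNA genes, and neither passed the filter outside them. Of 81 genes with names of mitochondrial ribosomal proteins, 3 of them pseudogenes by name, 16 were tested, 0 passed, and the median was 0.58. The highest were Mrpl49 at 2.34 and Mrpl50 at 1.96, and the lowest were Mrps12 at -0.30 and Mrpl28 at -0.17.

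The remaining paralogs and pseudogenes ranged widely in reads. Rpl10l and Rpl39l, known from testis, had 1 read each in the 6 libraries, and Rps4l had 3. Rpl22l1 was at no more than 0.343 RPKM in any library. Rpl7l1, with 638 reads, was at 3.56, 2.97 and 0.665 RPKM with HuR and at 1.26, 0.351 and 1.37 RPKM with IgG (log2 fold change 0.85). Rps19bp1 was at 1.73 RPKM in HuR 1, at 0 in HuR 2, at 0.0875 RPKM in HuR 3 and at 0 in all 3 IgG libraries. All of the 30-base words of Rps12l1 also occur in Rps12, 85.2% of those of Rps3a2 in Rps3a1, and 72.8% of those of Rpl6l in Rpl6, so the levels of these copies are uncertain.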

How the data were processed

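RIP-seq libraries of mouse liver were compared: 3 with HuR antibody, 3 with IgG and 3 of Input. Per the submitters' processing notes, Bowtie2 and featureCounts were used on mm10, with no version given in the sources used here. Deposited by the authors were RPKM per exon and pull-down library, a single Input column (read as the mean of the Input libraries), log2 fold columns against it, and a p-value and q-value per exon. In the deposited table the decimal mark was missing from values of at least 1. These were restored from the fold columns, which matched in all 138826 distinct value lines, 3 of which had more than 1 reading and none of which is a member. The fold columns exchange HuR 2 and HuR 3 against the RPKM columns, whose names were followed. The authors' p-value column was not used.

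Exon RPKM times exon length was summed per gene and divided by merged exon length. From the steps between values, library sizes were recovered, and 96.8% to 99.3% of summed gene values came to a whole number of reads (tolerance 0.05), for genes whose exons lie over no other gene. Reads are not independent molecules, so depth covers counting error only. Since reads were split between exons, a count model was not used. Of the listed exons 99.3% had the same coordinates in GENCODE M21 (GRCm38). Small structural RNA genes came from GENCODE M21 and RefSeq (GRCm38.p6), with an overlap of at least 1 base on either strand; adding RefSeq was chosen after seeing the data.

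HuR and IgG were compared with limma 3.58.1 (R 4.3.3), trend and robust moderation, two-sided, on log2(RPKM + 0.5). Genes at 0.5 RPKM or more in at least 3 of 6 libraries were fitted, and p-values were adjusted over all tested genes. A fold change on this scale understates the change of low genes. The fit was also run on simulated data with noise and changes set in advance. That run checks the calculation and not the power for these members. Input comparisons are values without a test. Members and gene lists were chosen with earlier results of these data known. Named in full were the 8 highest and 8 lowest log2 fold changes, the 8 highest Input means, and the stalk genes, Rpsa, Rps6, Rps27a, Rps21, Rpl35a, Rps2 and Rpl13. Rpl4, Rpl24, Rpl27a, and Rpl32 outside its snoRNA exon, were singled out after their values were seen. Some genes that this rule names, or that a list holds, are not reported here. Alternatives were other pseudocounts, filters, scalings, exon sets, a replicate block and left-out libraries. Tables and figures were made with pandas 2.3.3, numpy 2.4.6 and matplotlib 3.10.9 under Python 3.11.15.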

Additional observations from a re-analysis of the deposited data

How the results depend on the processing

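Low depth limits the members outside snoRNA genes, and 3 libraries in each group limit every comparison. Members called (higher, lower), with 0 and 0 as reported, came to 0 and 12 under TMM-like scaling (0.907% and 6.21% of all tested genes), 1 and 4 among protein-coding genes alone (18.5% and 0.203%), 1 and 0 with a filter at 1 RPKM (Rps21; 4.19% and 0.607%), and 1 and 0 with exons over no other gene (Rps10, at 2.92; 1.93% and 0.382%). Of the 12, 11 are snoRNA hosts and the other is Rps3a3. The cause of these differences was not tested. The exon set that also leaves out small RNA genes of RefSeq, every alternative within that set, the filter at 0.5 RPKM against Input and the fit without library 3 of both groups were chosen after seeing the data. The median log2 fold change of tested members, -0.003 as reported, was -1.04 under TMM-like scaling, -1.1 with libraries centred, 0.82 with exons over no other gene, 0.73 outside small RNA genes (of GENCODE alone, or with RefSeq), 0.63 without HuR 3 and IgG 1 together and -0.45 without library 3 of both groups. Without a single library it ranged from -0.31 (without IgG 3) to 0.75 (without IgG 1), and 0 or 1 member was called higher (Rps21, without IgG 1; 13.1% of all tested genes were). Outside small RNA genes, the median of 0.73 was -0.16 under TMM-like scaling, with 1 member called lower (Rps3a3; 5.36% of all tested genes were), -0.39 with libraries centred, 1.02 without HuR 3 and IgG 1 together and 0.16 without library 3 of both groups. Without a single library it ranged from 0.24 to 1.1, with 0 to 2 called higher (Rps21 and Rpl32, without HuR 2 and without IgG 1; 2.41% and 13.1% of all tested genes were).

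The median difference from Input, 0.68 for HuR, was 1.1 and 0.52 with pseudocounts of 0.1 and 1, 1.25 and 1.40 with filters at 0.5 and 1 RPKM, -0.68 with libraries centred, -0.037 under TMM-like scaling, 0.52 and 0.53 outside small RNA genes (of GENCODE, and with RefSeq), 0.52 with exons over no other gene, and 0.74 without HuR 3. Without a single library it ranged from 0.68 to 0.77. For IgG, 0.33 became 2.09 with a filter at 1 RPKM and ranged from -0.04 to 0.50 without a single library.

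Direction turned in some named members. With exons over no other gene, and outside small RNA genes of GENCODE or with RefSeq alike, Rpl13 was at 1.34 and Rpsa at 0.59, and Rpl7a was at 0.64 with RefSeq. Under TMM-like scaling and centring Rpl32 was at -1.44 and -0.92, Rpl8 at -1.34 and -1.04, Rpl12 at -1.25 and -0.74, and Rps6 was at -0.00018 with centring. Rplp1 was at 0.0031 with a pseudocount of 1. Without HuR 3 and IgG 1 together Rpl6 was at 0.63, Rplp1 at 0.37 and Rpsa at 0.29. Without library 3 of both groups Rps27rt was at -0.044, Rpl32 at -0.58 and Rpl8 at -1.04. Without single libraries Rplp1 ranged from -0.83 to 0.67, Rpl32 from -0.79 to 1.19, Rpl8 from -0.63 to 0.59, Rpl12 from -0.57 to 1.71 and Rpsa from -1.53 to 0.46.

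HuR and IgG libraries share replicate numbers, and same-numbered libraries deviated together with correlations of 0.14, 0.12 and 0.086, each library correlating best with its own number. The column headers also mark libraries 1 and 2 of both groups with M and library 3 with F, letters that no label explains. An r after the DKR number, in the headers of IgG 2 and IgG 3 and not of IgG 1 or the HuR libraries, is not explained either. What the numbers or letters share is therefore not given, and the correlations are a hint from the data. With library 3 of both groups left out, 0 members were higher and 0 lower, against 0.0907% and 0.2% of all tested genes. The F libraries are 1 against 1 and have no test of their own. With the replicate number as a block, 0 members were higher and 0 lower, but this fit called 0 of all 5510 tested genes in either direction. Its count therefore says nothing particular about members. The median stayed at -0.003. Outside small RNA genes the median stayed at 0.73 with 0 and 0 members called, where 0 of all 5425 tested genes were called.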
